A study of Mus musculus with 2 samples.

Results

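The Mir17hg polycistron, the mir-17 to mir-92 cluster, is a run of 6 microRNA hairpins, Mir17, Mir18, Mir19a, Mir20a, Mir19b-1 and Mir92-1, that are cut from a single primary transcript of the host gene Mir17hg. Its members were chosen by symbol, as the genes between chr14:115043671 and chr14:115044506 (mm10, plus strand), with earlier results of these data known. All 6 were found among the 1973 microRNA genes counted. Midbrains of embryonic mice (B6NCrl strain, healthy, both sexes pooled, 10.5 days of age) were profiled for RNA shorter than 30 nt, and the values are raw read counts per gene. The study has 1 group of 2 biological replicates, a pool of 69 embryos (replicate 1) and a pool of 51 embryos (replicate 2). Each pool gave 1 library, and no other stage, tissue, genotype or treatment is compared. The levels, their order and their spread between the pools are therefore a description, with no test between conditions. Differences between the replicates can stem from the pools or from library preparation, which cannot be told apart.

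In the nucleus the Microprocessor complex of Drosha and Dgcr8 cuts each hairpin from the primary transcript, and Dicer then cuts the hairpin to a short duplex, one strand of which is loaded into Argonaute. Bases 2 to 8 of the mature strand, the seed, pair with target messenger RNAs. The polycistron is known as a target of Myc and E2f transcription factors, as an oncogene in B-cell lymphoma, and as a promoter of proliferation and survival in embryonic tissues. In the mouse neocortex it is known to support the expansion of radial glia. Its members belong to 4 seed families, of which mir-17 (Mir17 and Mir20a) and mir-18 are close relatives in sequence, while mir-19 and mir-92 are distinct. Mammals have a pair of related polycistrons, mir-106a-363 on the X chromosome and mir-106b-25 in an intron of Mcm7, whose genes carry the same seeds except that mir-106b-25 has no mir-18 or mir-19 gene.

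The mature sequences show which members share a seed. They are from RefSeq (GRCm38.p6, the same build as mm10), which held all 6 hairpins at the coordinates of the counted genes, and are written 5′ to 3′ with the seed in capitals. For each member the arm is shown that is commonly taken as the guide strand, the 5p arm for Mir17, Mir18 and Mir20a and the 3p arm for the others.
miR-17-5p: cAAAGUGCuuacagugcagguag
miR-20a-5p: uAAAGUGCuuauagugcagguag
miR-18a-5p: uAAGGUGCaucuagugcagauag
miR-19a-3p: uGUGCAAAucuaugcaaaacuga
miR-19b-3p: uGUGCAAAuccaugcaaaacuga
miR-92a-3p: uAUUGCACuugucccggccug
Positions are counted from 1 at the 5′ end, with the base of the first-named microRNA first. miR-17-5p and miR-20a-5p differed at 2 of 23 bases, C1U and C12U, both outside the seed. miR-18a-5p differed from miR-17-5p at 6 bases, of which only A4G lies in the seed. miR-19a-3p and miR-19b-3p differed by U11C alone.

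The paralogs with the same seeds are shown for comparison, since they set how a read can be told from a member's read.
miR-106a-5p: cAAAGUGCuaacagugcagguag
miR-20b-5p: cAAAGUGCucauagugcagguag
miR-93-5p: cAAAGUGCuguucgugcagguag
miR-106b-5p: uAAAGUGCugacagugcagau
miR-18b-5p: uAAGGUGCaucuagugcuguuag
miR-25-3p: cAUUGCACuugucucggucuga
miR-363-3p: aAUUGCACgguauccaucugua
miR-92b-3p: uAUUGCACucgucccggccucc
miR-106a-5p differed from miR-17-5p by U10A alone, and miR-20b-5p differed from miR-20a-5p by U1C and U10C. Among the RefSeq hairpins, miR-17-5p, miR-18a-5p, miR-20a-5p and miR-19a-3p were each found at 1 locus only. The stretch needed to set a read apart, counted from its 5′ end, was 10 bases for miR-17-5p and miR-20a-5p, 11 for miR-19a-3p and 18 for miR-18a-5p.

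miR-19b-3p and miR-92a-3p, in contrast, are each encoded at 2 hairpins. The hairpin pairs are printed because reads of the shared part can be assigned to neither gene. Capitals mark the annotated mature arms.
Mir19b-1: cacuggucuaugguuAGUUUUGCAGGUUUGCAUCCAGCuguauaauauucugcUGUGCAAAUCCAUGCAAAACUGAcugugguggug
Mir19b-2: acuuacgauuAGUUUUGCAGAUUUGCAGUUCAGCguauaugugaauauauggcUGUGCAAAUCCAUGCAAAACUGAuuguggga
Mir92-1: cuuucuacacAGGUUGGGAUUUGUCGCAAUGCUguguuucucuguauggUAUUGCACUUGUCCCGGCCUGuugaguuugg
Mir92-2: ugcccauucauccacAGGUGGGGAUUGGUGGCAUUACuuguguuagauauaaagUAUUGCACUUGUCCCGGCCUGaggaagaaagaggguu
A read that starts at the first base of miR-19b-3p has to reach base 24 before it fits only 1 of these hairpins, and the annotated mature sequence ends at base 23. For miR-92a-3p the first such base is 22, and the annotated sequence ends at base 21. A read that starts at the first base of the 5p arm fits a single RefSeq hairpin from 11 bases for Mir19b-1 and Mir19b-2. For Mir92-1 and Mir92-2 this takes 9 bases. Of 916 counted genes with a mature sequence in RefSeq, 85 (9.28%) have one that occurs at another hairpin, and Mir19b-1 and Mir92-1 are among them. Reads that mapped to several places, 30.9% of the replicate 1 library and 29.5% of the replicate 2 library, are not in the gene counts, so the values of Mir19b-1 and Mir92-1 are uncertain and can be too low.

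The polycistron held a large part of the reads assigned to microRNA genes in both pools. Its 6 members together had 431040 reads of 3297835 gene-assigned reads in replicate 1 and 496818 of 3682410 in replicate 2. These are 13.1% in replicate 1 and 13.5% in replicate 2 of the gene-assigned reads, a mean of 13.3% ± 0.298 (SD, n = 2). Gene-assigned reads were 42.2% of the library in replicate 1 and 39.1% in replicate 2, and multiply mapped reads are not among them. In bulk tissue, more cells with the transcript and more transcript per cell cannot be told apart. No read of any member lay in the strand column taken as the opposite strand, where 3 reads would be 0.910 CPM in replicate 1 and 0.815 CPM in replicate 2 (CPM, reads per 1000000 gene-assigned reads).

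Mir17 and Mir20a, the members with the mir-17 seed, which is known to repress the cell cycle inhibitor Cdkn1a and the pro-apoptotic gene Bcl2l11, held most of these reads. Mir17 (ENSMUSG00000065508.1, chr14:115043671-115043754) had 261657 reads in replicate 1 and 297345 in replicate 2. Its level was 80045 ± 994 CPM (SD, n = 2), which gave it rank 3 among all counted genes in replicate 1 and rank 2 in replicate 2. Mir20a (ENSMUSG00000065442.1, chr14:115044157-115044263) had 103500 and 119729 reads and 31949 ± 799 CPM. It stood at rank 6 in replicate 1 and rank 5 in replicate 2. Together they made up 84.7% of the reads of the polycistron in replicate 1 and 83.9% in replicate 2.

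Mir18 (ENSMUSG00000065403.1, chr14:115043851-115043946), which is known to target the matricellular gene Ccn2 (Ctgf), came after Mir20a. It had 37490 and 43893 reads and 11644 ± 390 CPM (SD, n = 2). Mir92-1 (ENSMUSG00000076062.1, chr14:115044427-115044506), the last hairpin of the transcript and a regulator of integrin genes in endothelium, had 27563 and 35013 reads and 8933 ± 813 CPM. Both ranked between 17 and 25 among all counted genes in each library.

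The mir-19 genes, known as the members that drive lymphoma in mice, had the fewest reads. Mir19a (ENSMUSG00000065416.1, chr14:115044000-115044081) had 657 and 608 reads and 182 ± 24.1 CPM (SD, n = 2). Mir19b-1 (ENSMUSG00000076256.1, chr14:115044305-115044391) had 173 and 230 reads and 57.5 ± 7.07 CPM. Mir17 had 398 times the reads of Mir19a in replicate 1 (95% counting interval 369 to 430) and 489 times in replicate 2 (452 to 530). Ratios between members are ratios of reads, and whether library preparation captured each sequence equally was not tested. The mature sequence of Mir19b-1 also occurs at Mir19b-2. That of Mir19a occurred exactly at no other RefSeq hairpin, but with 1 mismatch at Mir19b-1 and Mir19b-2. The part of multiply mapped reads in either count was not tested.

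**Figure D1:**
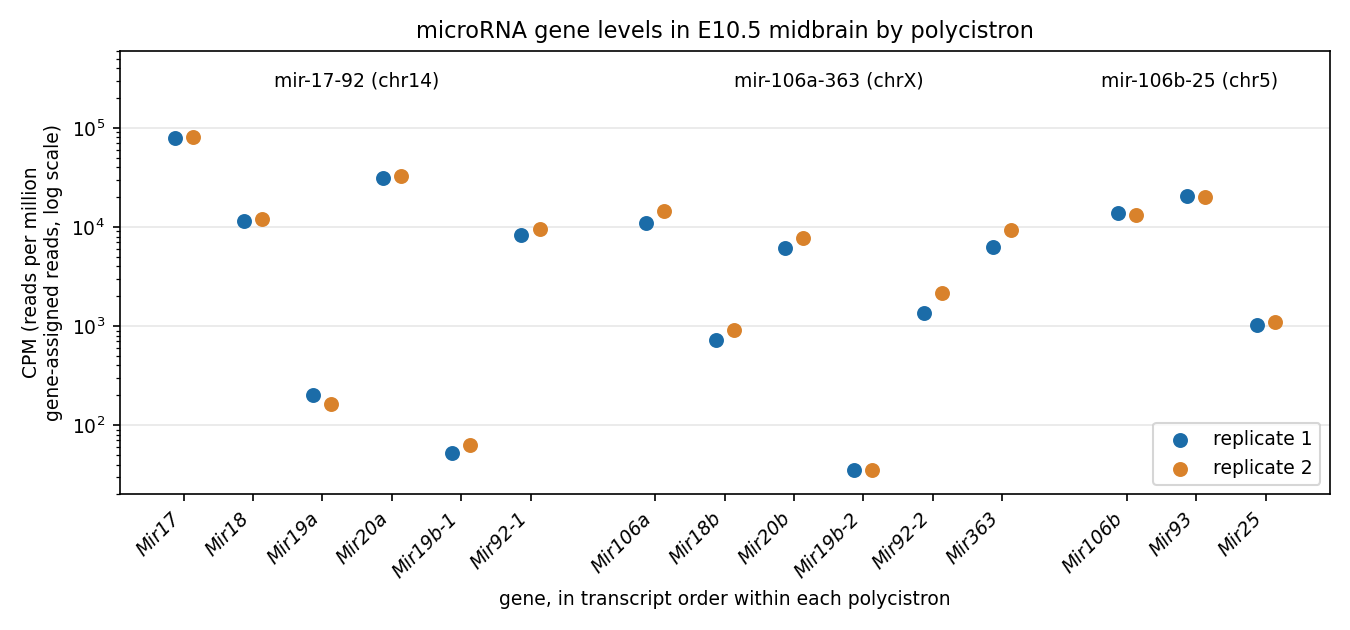
Level of each gene of the Mir17hg, mir-106a-363 and mir-106b-25 polycistrons in CPM (log axis), with 1 point per library (blue, replicate 1, pool of 69 embryos; orange, replicate 2, pool of 51 embryos). Mir17 was at 79342 and 80747 CPM, and the mir-19 genes of both polycistrons lay below all the others.

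As shares of the polycistron, the abundant members had similar proportions in both pools. Some of the counting intervals below do not overlap between the pools. How often this holds over all genes was not computed, so it is not read as a trait of the members. Mir17 held 60.7% of the reads in replicate 1 (95% Wilson interval 60.6 to 60.8%) and 59.8% in replicate 2 (59.7 to 60.0%). Mir20a held 24.0% and 24.1%, and Mir18 held 8.70% and 8.83%. Mir92-1 had a share of 6.39% in replicate 1 (6.32 to 6.47%) and 7.05% in replicate 2 (6.98 to 7.12%). Mir19a held 0.152% in replicate 1 (0.141 to 0.165%) and 0.122% in replicate 2 (0.113 to 0.132%). Mir19b-1 held 0.0401% in replicate 1 (0.0346 to 0.0466%) and 0.0463% in replicate 2 (0.0407 to 0.0527%). These intervals, like those of the ratios, cover counting error only, and not variation between pools or library preparation. They can also be too narrow, since several reads can come from one amplified molecule where no molecular identifiers are used.

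The order of levels in the counted reads was Mir17, Mir20a, Mir18, Mir92-1, Mir19a, Mir19b-1 in both libraries. The places of Mir92-1 and Mir19b-1 are uncertain, since reads of their mature sequences that mapped to several places are left out. Mir17 had 2.53 times the reads of Mir20a in replicate 1 and 2.48 times in replicate 2. Mir20a had 2.76 and 2.73 times the reads of Mir18. The closest neighbours were Mir18 and Mir92-1, with a ratio of 1.36 in replicate 1 (counting interval 1.34 to 1.38) and 1.254 in replicate 2 (1.24 to 1.27). The widest step was that from Mir92-1 to Mir19a, with a ratio of 42.0 in replicate 1 and 57.6 in replicate 2. Mir19a had 3.80 times the reads of Mir19b-1 in replicate 1 and 2.64 times in replicate 2. Each of the 5 differences in CPM was larger than the SD of either gene.

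The annotated precursors are 80 to 107 bases long. Levels were also set per length, as reads per kilobase of annotated precursor per 1000000 gene-assigned reads. The libraries hold RNA shorter than these precursors, so read numbers need not scale with precursor length. The values per length therefore also reflect how much flank was annotated, and are not corrected levels. On this scale the order was the same for all 6 members, which is no separate evidence for it. Mir17 had 952913 ± 11830 (SD, n = 2) and Mir20a 298589 ± 7465, so that the ratio of Mir17 to Mir20a was 3.22 in replicate 1 and 3.16 in replicate 2. Mir18 (121290 ± 4063) and Mir92-1 (111663 ± 10167) differed per length by less than the SD of Mir92-1. Within each library Mir18 was the higher of the pair per length, with a ratio of 1.13 in replicate 1 and 1.04 in replicate 2. Mir19a had 2222 ± 294 and Mir19b-1 660 ± 81.3 on the same scale.

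All 6 hairpins lie within the longer exon of Mir17hg-201 (chr14:115043271-115046727), in a stretch of 836 bases. The gaps between neighbouring hairpins are 96, 53, 75, 41 and 35 bases from Mir17 to Mir92-1. The members with the fewest reads, Mir19a and Mir19b-1, are the direct neighbours of Mir20a on either side, which had the next level after Mir17. The folding of the precursors was computed with RNAfold. The minimum free energy per 100 bases was −43.7 kcal/mol for Mir17, −30.4 for Mir18, −47.2 for Mir19a, −36.1 for Mir20a, −43.4 for Mir19b-1 and −42.5 for Mir92-1. The GC content of the mature sequences was 47.8% for miR-17-5p, 43.5% for miR-18a-5p and 34.8% for miR-19a-3p. It was 39.1% for both miR-20a-5p and miR-19b-3p, and 57.1% for miR-92a-3p. These are properties of 6 sequences in a single transcript, and their relation to the levels was not tested.

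**Figure D2:**
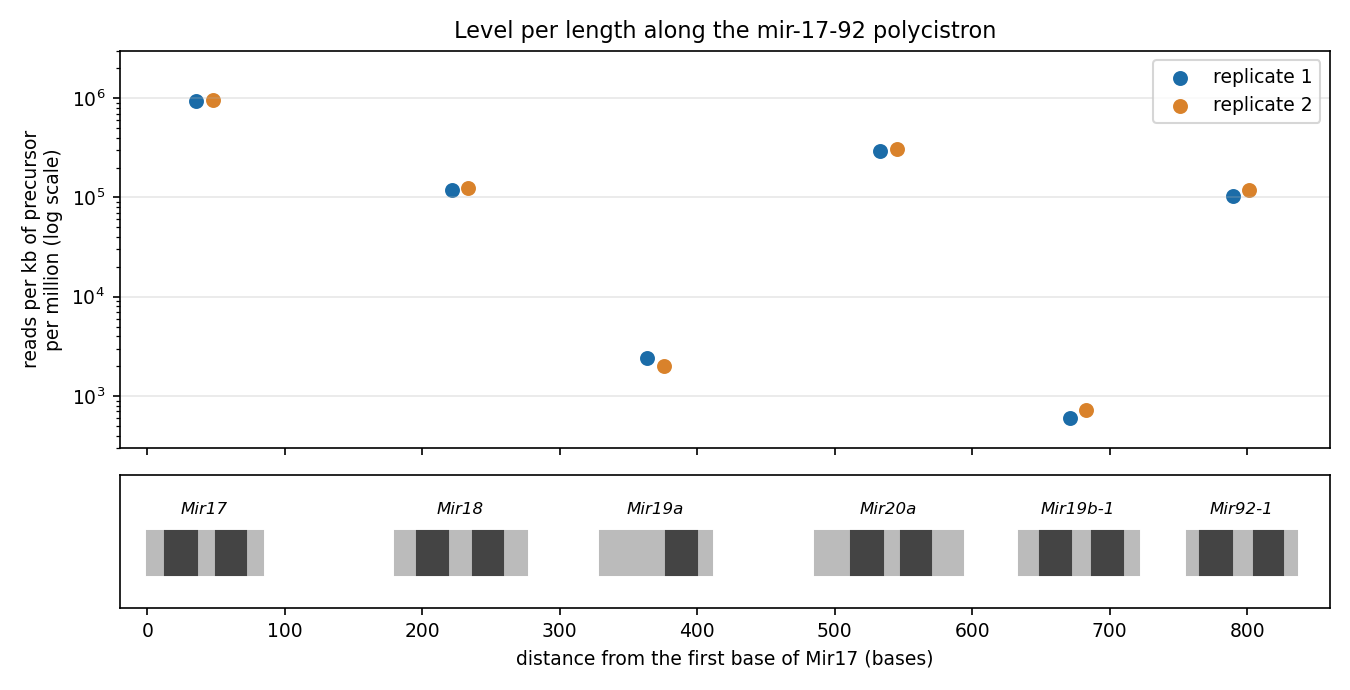
Reads per kilobase of annotated precursor per 1000000 gene-assigned reads (log axis) for each member along the transcript, at its distance in bases from the first base of Mir17, with 1 point per library. The values depend on the annotated precursor length and are not corrected levels. The lower strip draws the precursors in grey and their annotated mature arms in black, to scale, and shows Mir19a and Mir19b-1 on either side of Mir20a.

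The members differed little between the pools. The log2 ratio of replicate 1 over replicate 2 was taken after scaling by TMM (trimmed mean of M-values) with 0.5 reads added. It was −0.05 for the sum of the members, −0.03 for Mir17, −0.06 for Mir20a, −0.07 for Mir18 and −0.19 for Mir92-1. Mir19a was at 0.27 (counting interval 0.11 to 0.43), the only positive value. Mir19b-1, the gene with the fewest reads, was at −0.26 with an interval of −0.54 to 0.03 that includes 0. No member was past a log2 ratio of 0.32 in either direction, whereas 140 of the 338 genes with a mean of 10 CPM or more were (41.4%), and 58 of them (17.2%) were past 1.5-fold. The median log2 ratio of the members was −0.06, and that of the 338 genes was 0.03. The SD of the log2 ratio was 0.18 over the 6 members and 0.57 over the 338 genes. Most of the members are far above 10 CPM, and the spread was smaller among abundant genes. Over the 107 genes with a mean of 1000 CPM or more the SD was 0.42. The median log2 ratio without its sign was 0.13 for the members, 0.26 for the 338 genes and 0.23 for the 107. All 6 members were among those 338. They come from a single transcript and are not independent of each other, and the difference in spread was not tested.

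**Figure D3:**
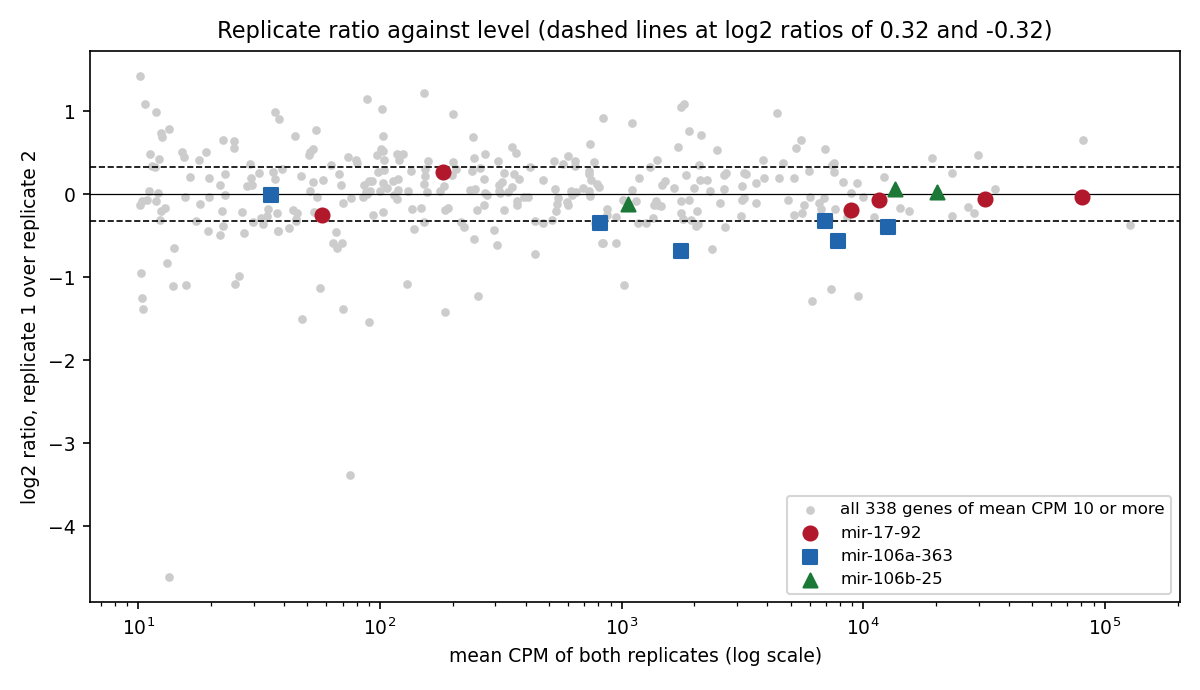
Log2 ratio of replicate 1 over replicate 2 against the mean CPM (log axis) for the 338 genes with a mean of 10 CPM or more (grey), with the genes of the 3 polycistrons in colour. The 6 members of the Mir17hg polycistron lie between the dashed lines at 0.32 and −0.32, while 5 of the 6 genes of mir-106a-363 lie below them.

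The genes of the other polycistrons were set beside the members as the remaining sources of the same seeds. Of the reads of all 15 genes, the Mir17hg polycistron held 68.2% in replicate 1 and 66.2% in replicate 2. The X-linked mir-106a-363 genes held 13.3% and 16.9%, and mir-106b-25 held 18.4% and 16.8%. In reads, Mir17 exceeded Mir106a, the first gene of the X-linked polycistron, by 7.26 times in replicate 1 and 5.63 times in replicate 2. Mir18 exceeded Mir18b by 15.9 and 13.1 times, and Mir20a exceeded Mir20b by 5.07 and 4.22 times. Per length these ratios were 5.62 and 4.35 for Mir17, 13.7 and 11.4 for Mir18, and 3.79 and 3.15 for Mir20a. They depend on the annotated precursor, which is 84 bases for Mir17 and 65 for Mir106a. Mir19b-1 and Mir19b-2 were much closer, with ratios of 1.48 (counting interval 1.17 to 1.87) and 1.76 (1.42 to 2.18) in reads. Both encode miR-19b-3p, and its reads that fit both loci are in neither count. The ratio of these 2 genes is therefore not on a par with those above.

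In the X-linked polycistron, too, the mir-19 gene had the fewest reads, although reads of miR-19b-3p that fit both loci are left out of its count, as they are for Mir19b-1. Mir19b-2 had 117 and 131 reads (35.5 ± 0.0684 CPM, SD, n = 2), and Mir106a at the head of its transcript had 308 times as many in replicate 1 and 404 times in replicate 2. Mir92-2, the other source of miR-92a-3p, had 4488 and 7993 reads, against 27563 and 35013 of Mir92-1. Mir92-1 thus had 6.14 and 4.38 times the reads of Mir92-2, for a mature sequence that both encode, with reads common to both loci left out of both counts.

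The mir-106a-363 genes were higher in replicate 2 as a sum. The summed polycistron had 25557 CPM in replicate 1 and 34531 CPM in replicate 2, a log2 ratio of −0.44 (counting interval −0.45 to −0.43). Of its 6 genes, 5 were past a log2 ratio of −0.32, where 61 of the 338 genes (18.0%) were past it in this direction. Mir19b-2 did not differ, at −0.008 (counting interval −0.37 to 0.35). Mir92-2 and Mir363 differed most, at −0.68 and −0.57, and Mir20b was only just past this threshold. With library totals as the scaling, 4 of the 6 were past it. The mir-106b-25 genes Mir106b, Mir93 and Mir25 were at 0.07, 0.02 and −0.12, and Mir93 turned to −0.01 with DESeq2 size factors. The difference between the polycistrons in this ratio was not tested, since each ratio compares the same 2 libraries.

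Grouped by seed, the share of the counted reads that the polycistron contributed varied widely between families. Reads of miR-19b-3p and miR-92a-3p that mapped to 2 loci are in none of these counts. The shares for the mir-19 and mir-92 seeds do not cover them. RefSeq lists 7 genes with the mir-17 seed AAAGUGC, which together had 165326 ± 4539 CPM (SD, n = 2). Mir17 and Mir20a supplied 68.3% of these reads in replicate 1 and 67.2% in replicate 2. The others came from Mir93 (20207 ± 294 CPM), Mir106b (13537 ± 465 CPM), Mir106a (12639 ± 2427 CPM) and Mir20b (6949 ± 1079 CPM), and Mir6383 had no reads. For the mir-18 seed AAGGUGC, Mir18 supplied 94.1% and 92.9% of 12456 ± 525 CPM, the rest being Mir18b. For the mir-19 seed GUGCAAA, Mir19a and Mir19b-1 supplied 87.6% (95% Wilson interval 85.4 to 89.6%) and 86.5% (84.2 to 88.5%) of only 275 ± 17.0 CPM.

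The mir-92 seed AUUGCAC was the family in which the polycistron was a minor source of the counted reads. Mir92-1 supplied 21.6% of its reads in replicate 1 and 19.9% in replicate 2, of 43282 ± 6508 CPM in all (SD, n = 2). Mir92b, a separate gene known from neural progenitors, had 70064 and 93358 reads, and Mir92-1 had 0.393 and 0.375 times as many. Mir363 (7843 ± 2132 CPM) was close to Mir92-1, with a ratio of Mir92-1 to Mir363 of 1.32 in replicate 1 and 1.02 in replicate 2. Their difference in CPM, 8933 against 7843, was smaller than the SD of Mir363. Mir25 and Mir32 had 1065 ± 61.4 and 370 ± 22.4 CPM, and Mir367 had 13 and 25 reads. These are gene counts over both arms of each hairpin, so a family sum can include reads of the other arm, and reads of miR-92a-3p and miR-19b-3p that mapped to 2 loci are missing from the mir-92 and mir-19 sums. The shares of the members in these families, and their intervals, do not cover such reads.

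**Figure D4:**
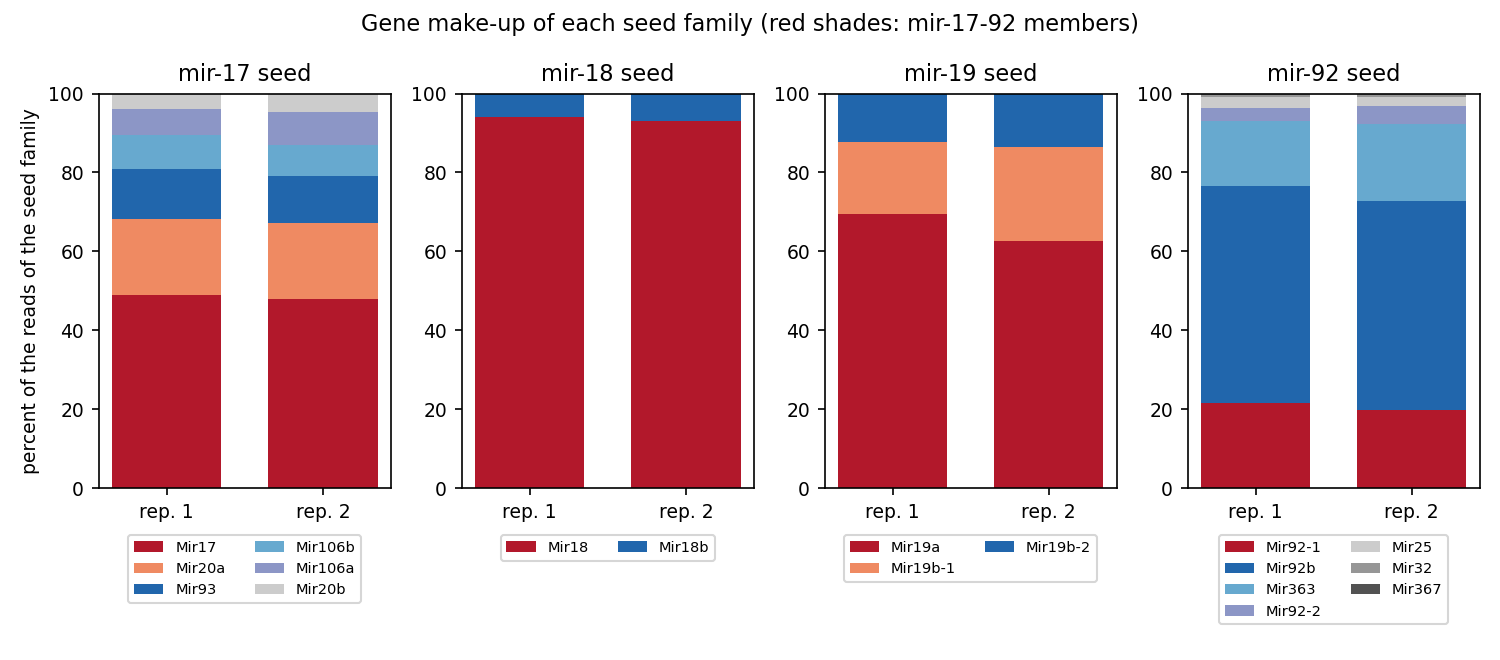
Percent of the reads of each seed family by gene, 1 stacked bar per library (rep. 1 and rep. 2), for the mir-17, mir-18, mir-19 and mir-92 seeds, with members of the Mir17hg polycistron in shades of red and the other genes in blue or grey. Members held 68.3% and 67.2% of the counted reads of the mir-17 family but 21.6% and 19.9% of those of the mir-92 family. Reads of miR-19b-3p and miR-92a-3p that mapped to 2 loci are not counted.

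With 2 libraries, a pattern across samples is a single ratio. Among the 103 other genes with a mean of 1000 CPM or more, the 5 whose log2 ratio lay nearest to that of the summed members (−0.05) were Mir361 at −0.05, Mir369 at −0.04, Mir487b at −0.04, Mir379 at −0.07 and Gm25301 at −0.07. All reads of Gm25301, 15781 and 18431, lay in the column taken as the opposite strand. The likeness rests on 2 libraries of 1 tissue.

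The labelled tissue was checked with lists of marker genes. Of 14 symbols of a neural list 12 were counted, with 3.19% of the gene-assigned reads in replicate 1 and 3.56% in replicate 2, mostly from Mir92b. After Mir92b, its highest genes were Mir219a-2 with 15572 and 20546 reads, Mir219a-1 with 5980 and 8514, Mir153 with 7925 and 5183, and Mir137 with 4697 and 2881. Copies of mir-9 and mir-124 had few counted reads, with 452 and 246 for Mir9-3 and 56 and 36 for Mir124a-2. Those genes have further copies at other loci. Reads that fit several loci are not counted, so these microRNAs cannot be called low. Of the 9 list members with a mean of 10 CPM or more, 5 had a log2 ratio of replicate 1 over replicate 2 above 0 and 4 below (median 0.51), while the summed list was at −0.17. Mir126a of endothelium held 2.64% and 3.08%, and a mesenchyme list of 6 counted genes 1.62% and 1.32%. Erythroid and leukocyte lists held 0.0404% and 0.128% in replicate 1, against 0.0374% and 0.145% in replicate 2. Mir122 of liver had 19 and 56 reads, and the heart and muscle list 164 and 205. Some genes of the heart and muscle list had 0 reads in both libraries. Reads that mapped to several places are in no list, so a low sum does not show that a cell type is absent. The polycistron is active in many cell types, and the part of each in its reads was not tested.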

How the data were processed

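The authors deposited a file of raw counts for each library, with reads counted on microRNA genes of GENCODE M4 in mm10, per the deposited file descriptions. How reads were trimmed and aligned is not given in the sources used here. Of the 3 unnamed count columns, the first was used. In every gene row it is the total of the next 2, which were read as the strands. Rows that name no gene stayed out of library sizes: unmapped (21.0% and 24.3% of 7810040 and 9423767 reads), multiply mapped (30.9% and 29.5%) and unassigned reads (5.89% and 7.20%). Gene-assigned reads were 3297835 and 3682410.

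Gene identifiers were matched without version to GENCODE M21 (GRCm38) for symbols and coordinates (1894 of 1973 matched), and sequences were taken from RefSeq, among whose 1005 hairpins exact and 1-mismatch copies were sought. No genome was searched. CPM, means and SDs over 2 replicates, shares with Wilson intervals and ratios with counting intervals (95%) were computed in Python 3.11.15 with scipy 1.17.1 and pandas 2.3.3. Precursors were folded with RNAfold 2.7.2. Library scaling used TMM in edgeR 4.0.16, with DESeq2 1.42.0 size factors and library totals as alternatives, in R 4.3.3. The design has 1 group, so no count model was fitted and no p-value is given. Genes were named by rule: the 6 members, 9 paralogs, Mir92b, Mir32, and the 5 genes of 1000 CPM or more nearest in log2 ratio. Mir6383 and Mir367 as seed genes, and the markers Mir9-3, Mir124a-2, Mir126a, Mir122, Mir137, Mir153, Mir219a-1 and Mir219a-2, were added after their values were seen. The members and lists were chosen with earlier results of these data known.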

Additional observations from a re-analysis of the deposited data

How the results depend on the processing

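The summed level of the members, 132810 CPM, was 136452 CPM with the strand column alone, 152286 CPM without the most abundant gene in the denominator, and 76207 CPM with multiply mapped reads in it, where the larger denominator is the cause. Leaving out a replicate, which with 2 libraries gives the value of the other one and is no test of stability, gave 130704 to 134917 CPM. Among the 4 members of 1 locus Mir17 held 64.6% of the reads, against 60.3% among all 6, with 59.8 to 60.7% when a replicate was left out. The ratio of Mir17 to Mir20a then ranged from 2.48 to 2.53, and the mir-17 seed family from 162117 to 168535 CPM. The log2 ratio of the summed members, −0.05, was −0.085 with DESeq2 size factors and −0.044 with the strand column, and under the scalings, added reads and strand column tried no member passed a log2 ratio of 0.32 or changed sign. Strand columns cannot change shares or ratios of the members, which had no opposite-strand reads. With a mean of 100 CPM or more required, fewer genes were tested, and 80 in place of 140 were past that ratio and 27 in place of 58 past 1.5-fold. Allowing 1 mismatch, 4 members in place of 2 had a mature sequence at another hairpin. No paired analysis was possible because there is 1 group. Depth limits Mir19a and Mir19b-1, with 173 to 657 reads per library, more than the other members.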
